A study of Mus musculus with 24 samples.

Results

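Compression of the ovarian follicle by dextran was examined in its oocyte. The comparison covered 8 of the 24 libraries of the study, 4 of oocytes from dextran-treated follicles and 4 of oocytes from control follicles, which were chosen by the cell type and treatment in their labels. Wild-type mouse follicles, at an age and strain that the labels do not give, had been enclosed in alginate and cultured to day 3 in a medium with serum, insulin, transferrin, selenium and FSH at 50 mIU/ml. This medium was common to both groups, and the dextran group had dextran at 10 kPa added to it. The third oocyte treatment, 20 µM blebbistatin, entered the fit for the spread between libraries. Follicles past 180 µm were taken apart by hand into oocytes, of which 1 to 2 made a library, and granulosa cells. The labels call the replicates biological without naming separate animals or cultures, so p-values measure the spread between these libraries, which may in part be technical.

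The growing oocyte is arrested in the prophase of meiosis, transcribes and stores RNA and protein for the early embryo, builds the zona pellucida around itself, and secretes GDF9 and BMP15 to the granulosa cells. Granulosa cells reach the oocyte through thin projections that cross the zona and end in gap junctions, and pass to it metabolites that it makes poorly itself, among them pyruvate and cholesterol. Dextran is a polysaccharide. Added to the medium of a tissue that it does not enter, it draws water out osmotically and so presses on the tissue from outside. Actomyosin, YAP signalling, stretch-sensitive channels and osmolyte transporters are the systems through which cells are known to meet such loads.

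The oocyte label was borne out by its markers and the purity of the libraries was uneven. Gdf9 (ENSMUSG00000018238), an oocyte-secreted growth factor, was at 7383, 6653, 6641 and 3892 CPM in control libraries 1 to 4 and 6797, 5401, 6999 and 5523 CPM in dextran libraries 1 to 4, where CPM are counts relative to a library total scaled by the TMM method. The same gene was at 0.789 ± 0.216 CPM (mean ± SD, n = 4) in control granulosa cells, whose table was scaled separately. Inha, the inhibin alpha chain made by granulosa cells, was at 279, 1475, 37.2 and 12.6 CPM in control libraries 1 to 4 and 23.8, 4.64, 0.789 and 39.9 CPM in dextran libraries 1 to 4. Control library 2 thus held 8.88% of the Inha level of control granulosa cells and control library 1 held 1.68%, against 0.0048% to 0.240% in the other 6 libraries. Inhbb, the inhibin beta-B chain, was at 21.4, 58.9, 0.986 and 0.904 CPM in control libraries 1 to 4 and 0, 0, 0.182 and 1.15 CPM in dextran libraries 1 to 4. Amh, the anti-Müllerian hormone of small growing follicles, was at 10.2, 48.0, 0.863 and 0 CPM in control libraries 1 to 4 and 0.462, 0, 0 and 0 CPM in dextran libraries 1 to 4. Its receptor gene Amhr2 was at 14.3, 50.3, 0.740 and 0 CPM in controls and 0.528, 0, 0 and 0.215 CPM with dextran, and Gja1, the granulosa gap junction protein connexin 43, at 138, 582, 5.36 and 5.31 CPM in controls and 10.5, 2.48, 0.425 and 14.3 CPM with dextran. All 5 genes were highest in control library 2 and next in control library 1.

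**Figure D1:**
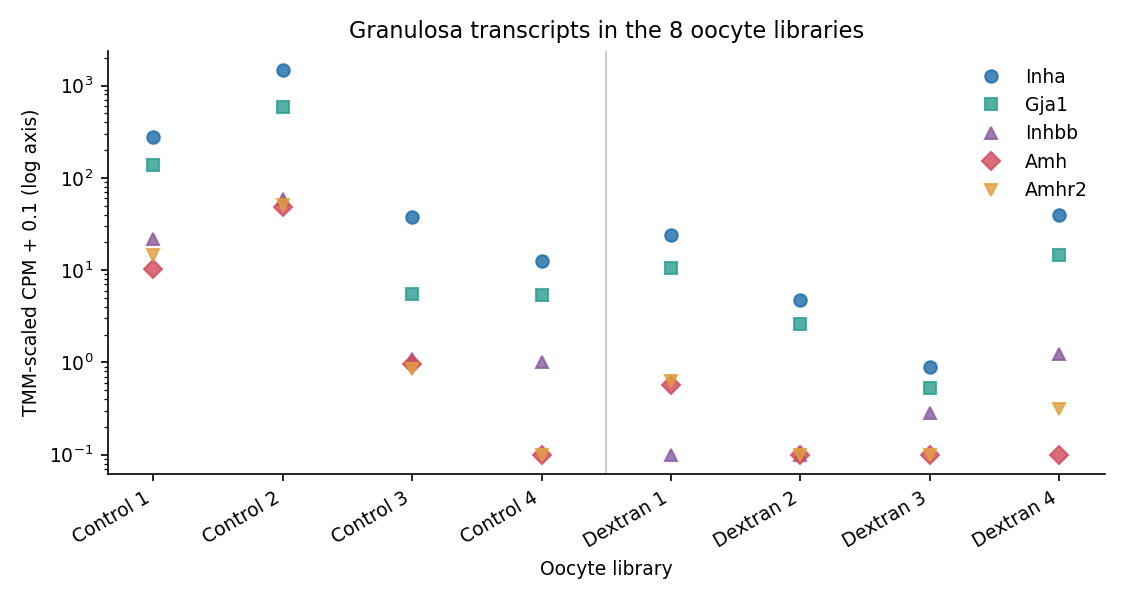
Levels of 5 granulosa cell transcripts (TMM-scaled CPM + 0.1, log axis) in the 4 control and 4 dextran oocyte libraries, 1 point per gene and library. Control libraries 1 and 2 stand above the other 6 for every gene shown, and points at the bottom are genes with a count of 0.

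Over 16 granulosa markers at 50 CPM or more in granulosa cells, the median share of the granulosa level was 4.08%, 13.8%, 0.332% and 0.0853% in control libraries 1 to 4 and 0.266%, 0.112%, 0.0319% and 0.346% in dextran libraries 1 to 4. The summed level of the 20 listed markers ran from 699 to 3401 CPM in controls and from 544 to 852 CPM with dextran, and 1 to 9 of the 20 were at 0 in a library. This sum did not follow the share. Dextran library 3 had the highest dextran sum (852 CPM), the lowest share (0.0319%) and 8 of the 20 at 0. The mean log2(CPM + 1) of the 20 markers was 3.49 ± 1.39 (SD) in controls and 2.26 ± 0.37 with dextran (exact two-sided permutation test of 4 against 4 libraries, p = 0.143, adjusted p = 0.286 over 4 library measures, smallest p possible 0.0286). Fewer granulosa cells in a library and less RNA per cell cannot be told apart in these data. Log2 changes without control libraries 1 and 2, an alternative chosen after their levels were seen, are therefore given beside many of the values below.

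Other library measures were compared in the same way. The mean log2 level of 21 oocyte markers was 8.88 ± 0.10 in controls and 8.96 ± 0.02 with dextran (exact permutation test, p = 0.143, adjusted p = 0.286). Of the 20 markers tested as single genes, 15 had positive and 5 negative log2 changes, with a median of 0.11. Without control libraries 1 and 2 these were 9 positive and 11 negative, with a median of −0.049. Each library was also left out in turn. Control library 3 (9.01) was above all dextran libraries (8.92 to 8.98), and the other controls (8.86 or less) were below them all. Leaving out control library 3 therefore fixed the unadjusted p at 0.0286 (exact permutation test), the smallest possible for 3 against 4 libraries. No conclusion is drawn from that p. Mitochondrially encoded genes took 0.259 ± 0.201% of counts in controls and 0.170 ± 0.099% with dextran (exact permutation test, adjusted p = 0.629). The difference all but vanished without control library 2, and was of the opposite sign without control libraries 1 and 2. A count was found for 24070 ± 1870 genes in controls and 23225 ± 1159 with dextran (exact permutation test, adjusted p = 0.610), and this difference was of the opposite sign without control libraries 1 and 2. Total counts ran from 14244057 to 18399462 per library. Dextran library 3 also stood apart: it was the highest of the 8 for 2233 and the lowest for 2146 of 10356 genes averaging 5 CPM or more, the most of any library in each case. Red blood cell markers summed to 103 CPM in control library 4 and to at most 2.67 CPM in the others. Stromal and theca markers summed to 2.35 to 5.51 CPM.

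No gene passed the test between dextran and control oocytes. Of 16749 genes tested, 0 were called (edgeR quasi-likelihood test, percent called 0%), the smallest adjusted p was 0.857, and 890 had an unadjusted p below 0.05 (5.31%), 301 higher (1.8%) and 589 lower (3.52%) with dextran. Limma voom called 0, with 705 at an unadjusted p below 0.05, and DESeq2 called 4. The 4 libraries of one group lay wholly above those of the other for 400 genes (2.39%), 191 higher (1.14%) and 209 lower (1.25%) with dextran. The median log2 change over all genes tested was 0.0031, and 49.5% of changes were negative. Without control libraries 1 and 2, 0 of 17909 genes were called by edgeR, 924 had an unadjusted p below 0.05, and the split turned to 590 higher and 334 lower. With the granulosa marker level of each library as a covariate the split was 546 higher and 309 lower, and 0 were called.

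The size of change that these libraries leave room for was narrow for most genes. Among the 10356 genes averaging 5 CPM or more, the median standard error (SE) of the log2 change was 0.19. The 95% confidence interval of 9111 of them (88.0%) lay wholly within a 2-fold change in either direction. Intervals are from each gene's SE in the edgeR fit, where the spread is drawn in part from other genes and from the blebbistatin libraries. They are not adjusted for the number of genes.

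Signs of the differences were compared between genes of the oocyte and genes of granulosa cells. Genes averaging 5 CPM or more in the 8 libraries were sorted by their level in control granulosa cells relative to blebbistatin oocytes, libraries that are not in the comparison. The 528 genes at least 8-fold higher in granulosa cells had a median log2 change of −0.56 with dextran, and 91.5% were negative. Without control libraries 1 and 2 that median was 0.02 and 47.7% were negative. A granulosa gene can reach 5 CPM through control libraries 1 and 2 alone, which favours negative values in this class. With the 5 CPM required in the blebbistatin libraries instead, an alternative chosen after seeing the data, the class held 427 genes with a median of −0.51 and 91.1% negative. The 2239 genes at least 8-fold higher in oocytes had a median of 0.08 with 30.1% negative, and 0.03 with 46.5% negative without those libraries. Groups that did not overlap were found for 0 lower and 18 higher (0.804%) of these oocyte genes. Of the 528 granulosa genes, 23 were lower (4.36%) and 0 higher without overlap. Genes within 2-fold between the cell types, also at 5 CPM or more, gave 0.893% higher and 0.506% lower. All genes tested, including those below 5 CPM, gave 1.14% higher and 1.25% lower. How far granulosa RNA accounts for the difference of any single gene was not tested.

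**Figure D2:**
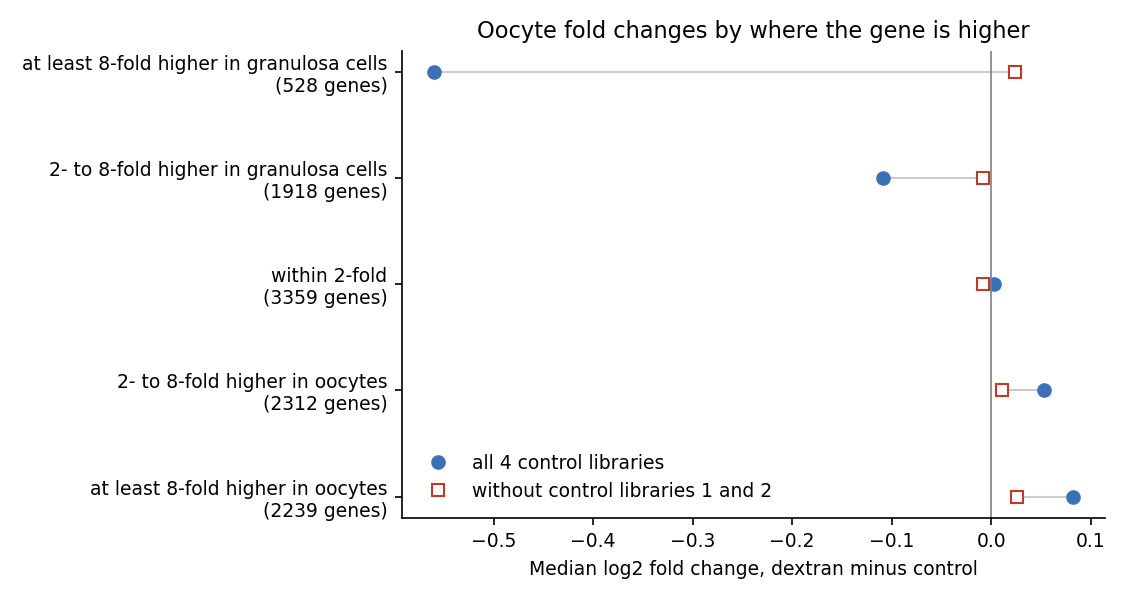
Median log2 fold change (dextran minus control oocytes) of genes averaging 5 CPM or more, in 5 classes by the ratio of their level in control granulosa cells to that in blebbistatin oocytes. Filled circles use all 4 control libraries and open squares leave out control libraries 1 and 2. With all controls the medians run from −0.56 for granulosa genes to 0.08 for oocyte genes, and without those libraries they lie between −0.01 and 0.03.

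Growth factors that the oocyte secretes did not pass the test. Of 7 listed 6 were tested, and 4 of 6 tested members had positive and 2 negative log2 changes, with a median of 0.052 (0.20 without control libraries 1 and 2). Gdf9 had a log2 change of 0.0089 ± 0.19 (95% interval −0.40 to 0.42), with control library 4 the lowest of all 8. Bmp15, its partner, was at 1507, 1912, 1556 and 1062 CPM in control libraries 1 to 4 and 1405, 1353, 2077 and 1851 CPM in dextran libraries 1 to 4, a log2 change of 0.15 ± 0.17 (−0.23 to 0.52). The groups overlapped for both. Fgf8, which acts with BMP15 on granulosa glycolysis, was at 173, 105, 184 and 186 CPM in controls and 154, 177, 154 and 130.0 CPM with dextran, with control library 2 the lowest. Bmp6 was at 49.0, 44.4, 55.9 and 57.9 CPM in controls and 54.9, 58.6, 47.9 and 59.9 CPM with dextran. Tgfb2 was at 497, 492, 510.0 and 486 CPM in controls and 498, 569.5, 980.1 and 534 CPM with dextran, a log2 change of 0.38 ± 0.17 (unadjusted p = 0.0426, edgeR adjusted p = 0.916) and 0.11 without dextran library 3, in which it was highest.

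The zona pellucida is the glycoprotein coat of the oocyte. Zp3 (ENSMUSG00000004948), one of its structural proteins, was at 2146, 2176, 2476 and 2521 CPM in control libraries 1 to 4 and 2641, 2969, 1505 and 2278 CPM in dextran libraries 1 to 4. Dextran library 3 was the lowest and dextran library 2 the highest of all 8. Its log2 change was 0.012 ± 0.17 (−0.35 to 0.37). Zp2, which the sperm binds, was at 891, 1032, 1047 and 1031 CPM in controls and 1016, 1411, 911 and 1019 CPM with dextran, a log2 change of 0.12 ± 0.15 with overlapping groups. Astl, the protease that cleaves ZP2 after fertilisation, was at 189.7, 186, 219 and 118 CPM in controls and 173, 197, 518 and 161 CPM with dextran. Its log2 change of 0.56 ± 0.38 was −0.0027 without dextran library 3. Oosp3, an oocyte-secreted protein, had a log2 change of 0.31 ± 0.21, and Izumo1r, the sperm receptor Juno, of −0.050 ± 0.15. Among all genes at least 8-fold higher in oocytes, 30.1% had negative log2 changes. Over this list of coat and surface genes 10 of 12 tested members had positive and 2 negative log2 changes. The list median was 0.12 (0.039, with 7 positive and 5 negative, without control libraries 1 and 2). The most negative was Cd81, a tetraspanin, at 28.4, 94.4, 9.80 and 3.32 CPM in controls and 7.33, 3.01, 4.19 and 6.45 CPM with dextran. Cd81 was at 1001 ± 184 CPM in control granulosa cells, and its log2 change of −2.70 ± 0.87 was −0.33 without control libraries 1 and 2.

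Transcription factors that set up the oocyte programme gave no call. Nobox, which drives Gdf9 and many other oocyte genes, was at 916, 705, 1005 and 986 CPM in controls and 997, 811, 743 and 776 CPM with dextran, a log2 change of −0.12 ± 0.12 (−0.38 to 0.14). Figla, which drives the zona genes, was at 20.1, 11.4, 24.3 and 16.8 CPM in controls and 15.5, 20.1, 15.2 and 19.4 CPM with dextran and Lhx8 at 212, 228, 257 and 246 CPM in controls and 242, 248, 179 and 227 CPM with dextran. Sohlh2, an early factor of oocyte growth, had a log2 change of −0.39 ± 0.32 and Foxo3, which holds primordial follicles dormant, one of 0.22 ± 0.12. Gata4, a factor of somatic gonad cells on the same list, was at 15.2, 21.0, 20.3 and 18.3 CPM in controls and 8.84, 10.0, 19.4 and 16.8 CPM with dextran. For the list as a whole, 9 of 16 tested members had positive and 7 negative log2 changes, with a median of 0.071 (−0.071 without control libraries 1 and 2). All of these groups overlapped.

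Kit, the receptor on the oocyte for granulosa-derived KIT ligand, was at 216, 307, 162 and 178 CPM in control libraries 1 to 4 and 298, 204, 189.7 and 242 CPM in dextran libraries 1 to 4. The highest level was in control library 2 and the next in dextran library 1, and the log2 change was 0.11 ± 0.18 (−0.28 to 0.51), or 0.45 without control libraries 1 and 2.

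**Figure D3:**
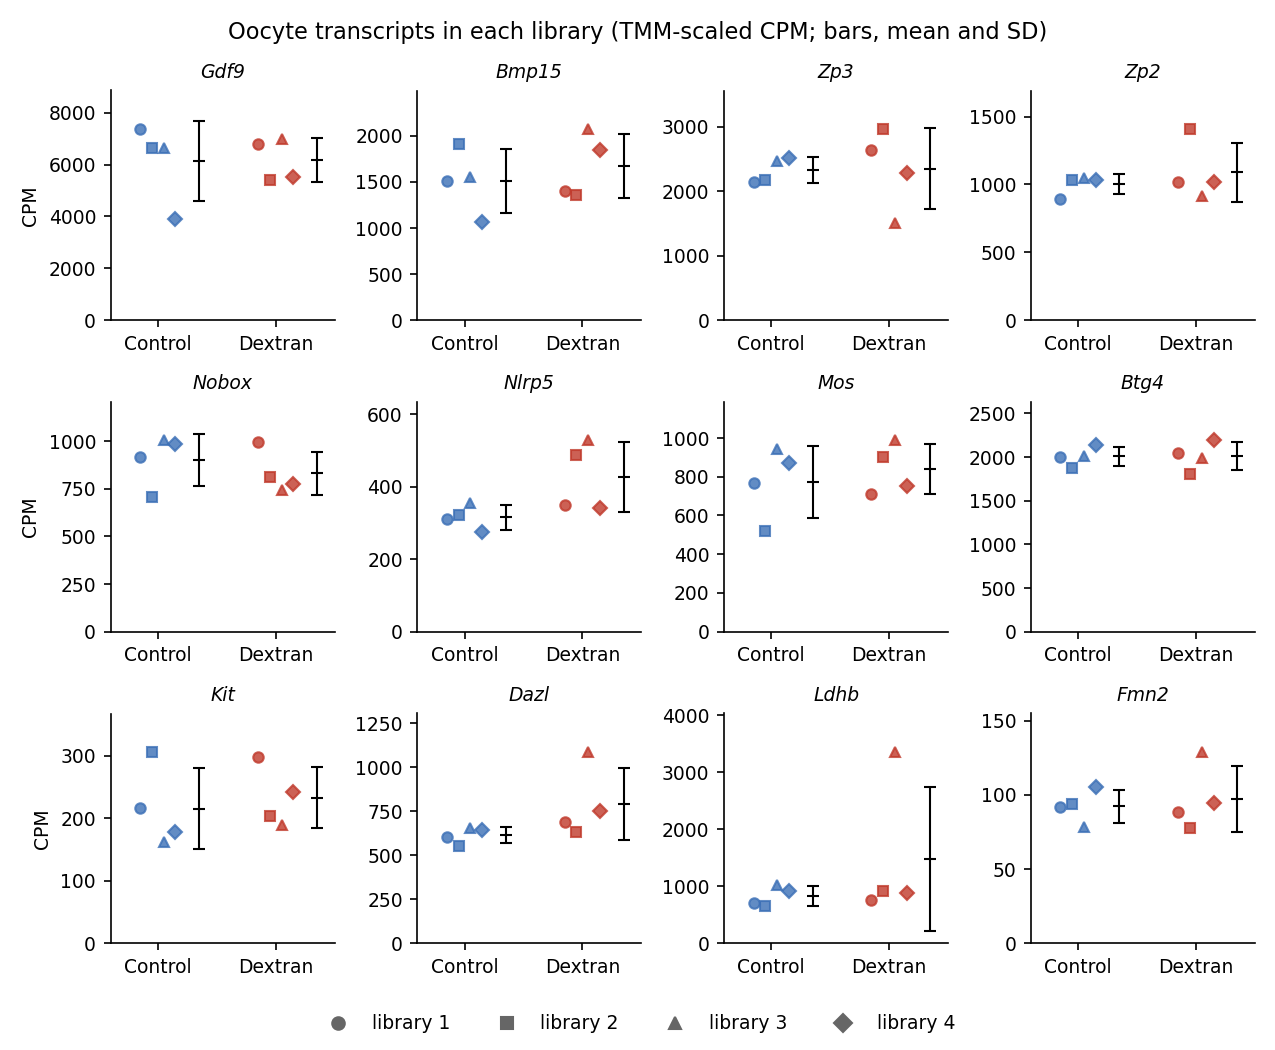
Levels (TMM-scaled CPM) of 12 oocyte-expressed genes in each control (blue) and dextran (red) library, with the mean and SD of 4 libraries as bars. Marker shapes give the library number, which is not known to pair samples across groups. The groups overlap in every panel, and dextran library 3 (triangle) is farthest from the rest for Ldhb.

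Maternal proteins stored for the embryo form the subcortical maternal complex and related structures. All 20 listed members were tested and all 20 had a 95% interval within a 2-fold change. Among all genes at least 8-fold higher in oocytes, 30.1% had negative log2 changes. In this list 15 of 20 tested members had positive and 5 negative log2 changes. The median was 0.12 (0.073, with 11 positive and 9 negative, without control libraries 1 and 2). Nlrp5, a scaffold of the complex, was at 309.7, 323, 355 and 274 CPM in controls and 348, 488, 528 and 340.2 CPM with dextran, a log2 change of 0.43 ± 0.25 (−0.10 to 0.97). Padi6, needed for the cytoplasmic lattices, was at 1528, 1689.7, 1736 and 1958 CPM in controls and 2214, 2440.3, 1958 and 1655 CPM with dextran. Zbed3, a member of the complex, was at 10483, 8968, 11676 and 12323 CPM in controls and 11367, 13410.2, 20191 and 10247 CPM with dextran, and dextran library 3 was the highest. Its log2 change of 0.35 ± 0.18 was 0.11 without that library. Uhrf1, which guides maintenance DNA methylation, had a log2 change of 0.23 ± 0.14, Nlrp2 one of −0.10 ± 0.16 and Zar1l one of −0.034 ± 0.13. Oog3, an oocyte leucine-rich repeat protein, was at 2319, 1777, 1838 and 1705 CPM in controls and 2297, 1969, 2389 and 2447 CPM with dextran, a log2 change of 0.25 ± 0.15.

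Genes that hold or release meiotic arrest lay in both directions. Here 18 of 33 tested members had positive and 15 negative log2 changes, with a median of 0.030 (0.015 without control libraries 1 and 2). Mos, the kinase that keeps the egg in metaphase, was at 765, 519, 942 and 873 CPM in controls and 713, 904, 988 and 754 CPM with dextran, a log2 change of 0.12 ± 0.16. Ccnb1, cyclin B1, was at 1801, 1621, 1766 and 1636 CPM in controls and 1763, 1678, 2122 and 2197 CPM with dextran, a log2 change of 0.19 ± 0.10 (unadjusted p = 0.0877, edgeR adjusted p = 0.942). Plk1, a mitotic kinase, had a log2 change of 0.14 ± 0.10 and Mastl, the Greatwall kinase that restrains PP2A, one of 0.16 ± 0.11. Groups did not overlap for 1 of the 33 members, near the background of 2.39% of all genes tested. It was Cdc25b, a phosphatase that activates CDK1. Cdc25b was at 16.1, 15.4, 17.6 and 12.9 CPM in control libraries 1 to 4 and 9.77, 12.7, 11.1 and 12.3 CPM in dextran libraries 1 to 4, all 4 dextran libraries below all 4 controls, with a log2 change of −0.43 ± 0.19 (unadjusted p = 0.0417, edgeR adjusted p = 0.915) and −0.41 without control libraries 1 and 2. Prkacb, a catalytic subunit of protein kinase A, had one of −1.33 ± 0.62 (−0.70 without those libraries). Of the meiotic cohesin and recombination genes, Sycp3, of the synaptonemal complex axis, was at 14.8, 28.2, 18.2 and 15.6 CPM in controls and 30.2, 19.3, 38.8 and 32.0 CPM with dextran, a log2 change of 0.65 ± 0.28 (edgeR adjusted p = 0.901).

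RNA stored in the oocyte is bound by dedicated proteins and removed at maturation. In that list 21 of 31 tested members had positive and 10 negative log2 changes. The median was 0.043 (0.085, with 19 positive and 12 negative, without control libraries 1 and 2). Btg4, which brings the deadenylase to maternal RNA, was at 2005, 1878, 2011 and 2133 CPM in control libraries 1 to 4 and 2050.1, 1811, 1990.1 and 2192 CPM in dextran libraries 1 to 4, the narrowest spread of the genes in this paragraph. Its log2 change was 0.0029 ± 0.10 and its 95% interval −0.21 to 0.22. Dazl, an RNA-binding protein that promotes translation, was at 606, 550.5, 655 and 640.4 CPM in controls and 689, 630.4, 1088 and 751 CPM with dextran. A log2 change of 0.37 ± 0.14 (edgeR adjusted p = 0.878) became 0.17 without dextran library 3. Lsm14b, of stored ribonucleoprotein particles, had a log2 change of 0.37 ± 0.18 (0.16 without that library).

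DNA methylation of the oocyte genome is laid down during this growth phase. Dnmt3l, the cofactor of the methylating enzyme, was at 198, 175, 185 and 197 CPM in controls and 183, 232, 263 and 206 CPM with dextran, a log2 change of 0.23 ± 0.13. Dnmt3b was at 31.8, 27.1, 24.4 and 23.5 CPM in controls and 37.7, 40.2, 49.9 and 22.1 CPM with dextran, a log2 change of 0.49 ± 0.22 (unadjusted p = 0.0454), and Mbd3, of the NuRD complex, had one of −0.32 ± 0.17. In the list of methylation and imprinting genes 9 of 17 tested members had positive and 8 negative log2 changes, with a median of 0.082 (0.092 without control libraries 1 and 2). Among H3K4 methyltransferase subunits, Kmt2b, a main H3K4 methyltransferase of the oocyte, had a log2 change of 0.32 ± 0.23 and Ash2l, a core subunit, one of −0.36 ± 0.14 (unadjusted p = 0.0194, edgeR adjusted p = 0.878). In the list of histone chaperones and histone variants 12 of 25 tested members had positive and 13 negative log2 changes, with a median of −0.022 (−0.022 without control libraries 1 and 2), and 3 of 25 had an unadjusted p below 0.05, all lower (background 3.52%). Anp32b, a histone chaperone, was at 222, 293, 223 and 229 CPM in controls and 183, 179, 197 and 222 CPM with dextran, groups that did not overlap, with −0.31 ± 0.12 in full and −0.21 without control libraries 1 and 2. H2az1, a histone variant gene at 2214 ± 396 CPM in control granulosa cells, had −1.64 ± 0.61 in full and −0.061 without them. Set, another histone chaperone, had −1.03 ± 0.45 in full and 0.065 without them.

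The 12 genes of smallest p among those lower with dextran, each with a mean of at least 5 CPM, all had an edgeR adjusted p of 0.857 and did not pass. That mean was over the 8 libraries compared. A gene can reach it through control libraries 1 and 2 alone, as Bok below did, which favours lower values with dextran. Each of the 12 was at a higher level in granulosa cells than in oocytes. Hadh (ENSMUSG00000027984), a mitochondrial enzyme of fatty acid oxidation, was at 6.29, 23.3, 6.66 and 5.06 CPM in control libraries 1 to 4 and 2.31, 2.29, 2.43 and 2.29 CPM in dextran libraries 1 to 4. All 4 dextran libraries lay below all 4 controls and within a narrow range, and control library 2 was far above the other controls. Its log2 change of −2.15 ± 0.46 (−3.12 to −1.18) was −1.33 without control libraries 1 and 2, and its level in control granulosa cells was 206 ± 21.5 CPM. Fyttd1 (ENSMUSG00000022800), which adapts mRNA for nuclear export, was at 9.97, 19.5, 10.8 and 11.9 CPM in control libraries 1 to 4 and 6.86, 5.95, 3.94 and 5.88 CPM in dextran libraries 1 to 4, again without overlap. Its log2 change was −1.21 ± 0.28, and −1.01 without those libraries.

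Itm2c, a membrane protein, was at 20.9, 28.8, 19.8 and 12.8 CPM in controls and 10.7, 7.97, 11.0 and 8.74 CPM with dextran (log2 change −1.10 ± 0.27; −0.76 without control libraries 1 and 2). Psmd13, a subunit of the proteasome lid, was at 30.1, 40.6, 23.0 and 18.6 CPM in controls and 18.0, 13.8, 13.3 and 13.8 CPM with dextran (−0.93 ± 0.23; −0.50). Prps1, which makes the ribose donor of nucleotide synthesis, was at 6.02, 28.1, 4.01 and 4.64 CPM in controls and 1.39, 3.07, 0.607 and 2.65 CPM with dextran (−2.47 ± 0.62; −1.17). The groups did not overlap for these genes, and control library 2 was the highest of the 8 for each. Dhrs7b, a peroxisomal reductase, was at 7.96, 9.86, 6.35 and 10.6 CPM in controls and 5.08, 2.22, 3.70 and 4.09 CPM with dextran (−1.20 ± 0.30; −1.17). Commd7, a COMM domain protein, was at 20.3, 17.3, 20.0 and 15.0 CPM in controls and 12.4, 9.48, 9.77 and 12.3 CPM with dextran (−0.72 ± 0.19; −0.67). These 2 kept nearly the same log2 change without control libraries 1 and 2, and control library 2 was not their highest.

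The remaining 5 included parts of the machinery for splicing, respiration, translation and nucleotide synthesis. Snrpb, a core splicing protein, was at 46.0, 75.1, 45.8 and 30.9 CPM in controls and 31.1, 31.6, 21.7 and 27.2 CPM with dextran (−0.83 ± 0.22; −0.46 without control libraries 1 and 2). Uqcrfs1, the Rieske protein of respiratory complex III, was at 69.5, 76.4, 62.9 and 61.6 CPM in controls and 53.5, 45.4, 42.9 and 53.7 CPM with dextran (−0.47 ± 0.13; −0.35). Rps3, of the small ribosomal subunit, was at 104, 161, 87.0 and 70.0 CPM in controls and 60.7, 60.0, 66.7 and 63.0 CPM with dextran (−0.75 ± 0.21; −0.33). The groups did not overlap for Uqcrfs1 and Rps3. Impdh2, of guanine nucleotide synthesis, had −1.21 ± 0.33 in full and −0.57 without those libraries. Bok, a BCL2 family member, was at 10.1, 35.0, 1.73 and 0.784 CPM in controls and 1.19, 0.196, 0.546 and 0.143 CPM with dextran, and its log2 change of −4.49 ± 1.17 was −1.26 without them.

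The 12 genes of smallest p among those higher with dextran also had an edgeR adjusted p of 0.857 and did not pass either. Slamf7 (ENSMUSG00000038179), a receptor known from immune cells, was at 2.14, 2.97, 3.21 and 1.63 CPM in control libraries 1 to 4 and 5.61, 13.9, 4.73 and 7.53 CPM in dextran libraries 1 to 4. All 4 dextran libraries were above all 4 controls, and dextran library 2 was the highest. Its log2 change was 1.67 ± 0.44 (0.74 to 2.60), and it was at 0.120 ± 0.240 CPM in control granulosa cells. The 10 immune cell markers listed summed to 46.0 to 51.0 CPM in controls and 43.5 to 61.9 CPM with dextran, and 3 to 6 of the 10 were at 0 in a library. Csmd3, a large CUB and Sushi domain protein, was at 40.5, 42.4, 48.3 and 38.3 CPM in controls and 73.7, 64.2, 96.0 and 48.1 CPM with dextran (0.73 ± 0.20; 0.55 without dextran library 3), and its groups overlapped by 1 library. Zscan5b, a zinc finger gene, was at 5.15, 4.66, 3.76 and 2.23 CPM in controls and 6.86, 7.06, 11.4 and 8.10 CPM with dextran (1.08 ± 0.31). Il31ra, a cytokine receptor, was at 20.1, 33.4, 20.2 and 26.3 CPM in controls and 36.3, 38.6, 50.7 and 31.4 CPM with dextran (0.65 ± 0.19). Granulosa cells held less than 1 CPM of these 3.

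Bcas1 was at 32.7, 29.8, 26.6 and 31.5 CPM in controls and 34.1, 46.2, 40.0 and 48.8 CPM with dextran (0.49 ± 0.15) and Osgepl1, a mitochondrial tRNA-modifying enzyme, at 53.1, 45.6, 54.9 and 55.3 CPM in controls and 63.4, 78.6, 63.8 and 66.4 CPM with dextran (0.38 ± 0.12). Senp6, which removes SUMO chains, was at 72.9, 80.5, 72.6 and 89.1 CPM in controls and 89.6, 92.4, 108 and 112 CPM with dextran (0.35 ± 0.12), and St6gal1, a sialyltransferase, at 48.7, 44.3, 33.6 and 40.5 CPM in controls and 55.8, 58.0, 60.6 and 50.7 CPM with dextran (0.43 ± 0.14). For these 4 the groups did not overlap, and the log2 changes without control libraries 1 and 2 were 0.54, 0.30, 0.31 and 0.60 in the same order. Trpm4, a calcium-activated cation channel, was at 3.81, 5.25, 4.68 and 1.87 CPM in controls and 6.67, 6.01, 8.13 and 8.74 CPM with dextran (0.92 ± 0.30), also without overlap. Cdc42ep3, an effector of the actin regulator CDC42, was at 15.1, 30.9, 39.5 and 12.2 CPM in controls and 39.1, 43.8, 72.3 and 37.9 CPM with dextran. Its groups overlapped, and the log2 change of 0.98 ± 0.32 was 0.72 without dextran library 3, the highest. The predicted gene Gm17751 and AW146154 completed the 12, with log2 changes of 0.52 ± 0.16 and 0.48 ± 0.15 and no overlap.

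**Figure D4:**
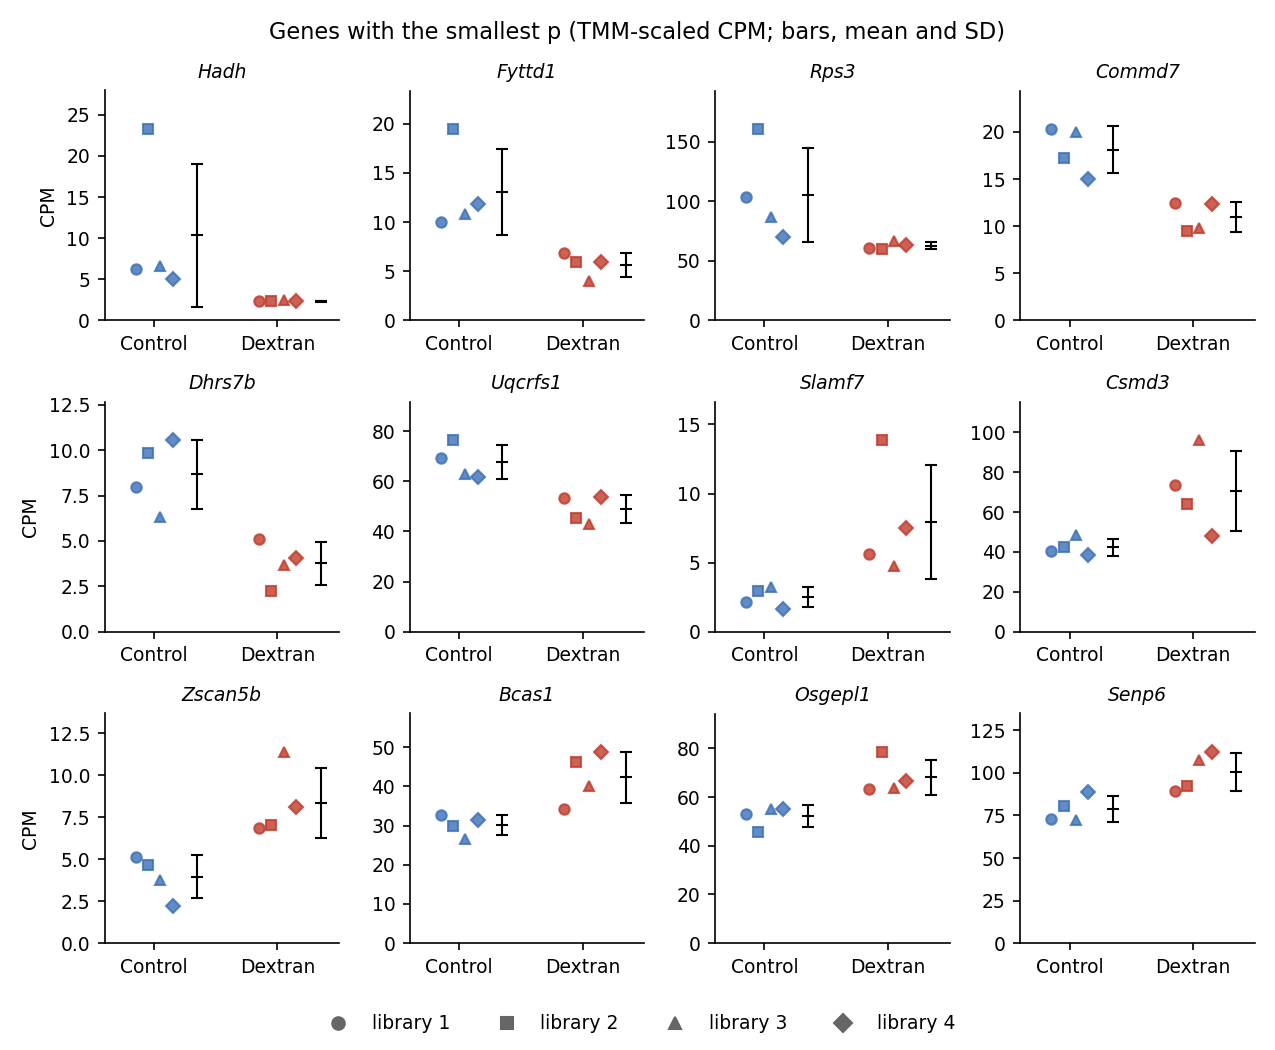
Levels (TMM-scaled CPM) of 6 genes lower and 6 genes higher with dextran, from those of smallest p in each direction, in each control (blue) and dextran (red) library, with the mean and SD of 4 libraries as bars. The groups do not overlap except for Csmd3, and control library 2 (square) is highest for Hadh, Fyttd1, Rps3 and Uqcrfs1. None of the 12 passed the test across all genes.

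The 4 genes that DESeq2 called are named here after their values were seen, and all were lower with dextran. Hadh had a DESeq2 adjusted p of 0.0232. Fads2, a fatty acid desaturase, was at 2.54, 13.7, 0.555 and 0.482 CPM in controls and 0.132, 0, 0 and 0 CPM with dextran (DESeq2 adjusted p = 0.0221). Tmed1, a cargo receptor of the secretory pathway, was at 1.87, 17.6, 1.17 and 1.03 CPM in controls and 0.132, 0, 0.0607 and 0.717 CPM with dextran (DESeq2 adjusted p = 0.0221). Pck2, the mitochondrial phosphoenolpyruvate carboxykinase, was at 2.68, 24, 0.0616 and 0.181 CPM in controls and 0.0660, 0, 0 and 0.0717 CPM with dextran (DESeq2 adjusted p = 0.0420). Control library 2 was the highest for each of the 4 and their edgeR adjusted p was 0.857.

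Gene lists were described by counts of tested members, beside 49.5% negative changes and a median of 0.0031 over all genes (47.9% and 0.02 without control libraries 1 and 2). A gene passed the filter on low counts when it was present in as few as 4 libraries, so a transcript found mainly in the controls was among those tested. Cytosolic ribosomal proteins, the structural parts of the ribosome, had negative log2 changes in nearly every case. Of 40 members 39 had a negative log2 change, with a median of −0.32, and 10 had groups that did not overlap (background 1.25%) and an unadjusted p below 0.05 was found for 19 (background 3.52%). Rps19 was at 142, 226, 132 and 108 CPM in controls and 94.8, 117, 89.5 and 97.3 CPM with dextran (−0.61 ± 0.19) and Rpl30 at 46.2, 63.6, 50.7 and 46.4 CPM in controls and 36.2, 42.2, 41.3 and 37.8 CPM with dextran (−0.39 ± 0.13). Without control libraries 1 and 2 the count was 38 of 40 negative and the median −0.22. In granulosa cells the members were at a median of 6.05 times the oocyte level. Of the 1918 genes averaging 5 CPM or more and 2- to 8-fold higher in granulosa cells, 70.3% were negative (51.5% without control libraries 1 and 2). In that class 3.44% were lower without overlap, and 107 were lower at an unadjusted p below 0.05 (edgeR). The edgeR adjusted p values of the ribosomal genes did not pass in any case.

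Genes of energy metabolism gave values in both directions. For glycolysis, pyruvate use and hypoxia response, 12 of 27 tested members had positive and 15 negative log2 changes, with a median of −0.047 (0.011 without control libraries 1 and 2). Eno1, the enolase of glycolysis, was at 324, 317, 176 and 176 CPM in control libraries 1 to 4 and 154, 175, 153 and 149 CPM in dextran libraries 1 to 4. Control libraries 1 and 2 were the highest, the groups did not overlap, and its log2 change of −0.65 ± 0.20 was −0.16 without them. Ldha, the lactate dehydrogenase subunit of granulosa cells (1539 ± 699.7 CPM there), was at 73.3, 86.8, 10.8 and 2.35 CPM in controls and 6.40, 0.0654, 0.121 and 1.72 CPM with dextran. Ldhb, the subunit typical of oocytes, was at 698, 659, 1022 and 917 CPM in control libraries 1 to 4 and 763, 910.1, 3357 and 875 CPM in dextran libraries 1 to 4. For Ldhb the log2 change of 0.84 ± 0.45 was 0.045 without dextran library 3, which was far above the other 7. Gpi1, of glycolysis, was at 87.1, 106, 86.3 and 91.7 CPM in controls and 82.4, 82.1, 66.0 and 56.2 CPM with dextran (−0.37 ± 0.14), without overlap. Mpc1, the mitochondrial pyruvate carrier, was at 76.0, 74.3, 88.2 and 82.1 CPM in controls and 84.7, 102, 119.8 and 82.6 CPM with dextran (0.28 ± 0.14) and Pdk1, which inhibits pyruvate dehydrogenase, at 26.5, 33.2, 18.9 and 15.0 CPM in controls and 23.0, 27.0, 45.3 and 38.2 CPM with dextran (0.51 ± 0.25).

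Respiratory chain genes of the nucleus and of the mitochondrion gave different patterns. Among nuclear oxidative phosphorylation genes 8 of 33 tested members had positive and 25 negative log2 changes, with a median of −0.067 (−0.11 without control libraries 1 and 2). Uqcrb, of complex III, was at 42.3, 54.4, 42.0 and 44.6 CPM in controls and 38.0, 28.8, 24.4 and 38.3 CPM with dextran (−0.50 ± 0.17), without overlap, and Uqcrc1, of the same complex, at 66.4, 103, 66.5 and 37.9 CPM in controls and 48.2, 40.9, 35.6 and 44.3 CPM with dextran (−0.70 ± 0.24). For the mitochondrially encoded genes, by contrast, the sign depended on the controls used. With all controls 3 of 12 tested members had positive and 9 negative log2 changes, with a median of −0.38 (1.00 without control libraries 1 and 2). mt-Co1, of cytochrome oxidase, was at 369, 821, 62.4 and 127 CPM in control libraries 1 to 4 and 142, 151, 228 and 149 CPM in dextran libraries 1 to 4. Its log2 change of −1.04 ± 0.66 was 0.82 without control libraries 1 and 2. mt-Cytb, cytochrome b, was at 468, 958, 51.0 and 119 CPM in controls and 89.2, 64.0, 397 and 118 CPM with dextran, and its log2 change of −1.25 ± 0.96 was 0.98 without them. mt-Co3 had 0.063 ± 0.53 in full and 1.32 without them. Without control library 2 alone the median of the mitochondrially encoded genes was 0.26 with 2 of 12 negative, and without dextran library 3 it was −1.17 with 12 of 12 negative. Granulosa cells held these genes at a median of 32.3 times the oocyte level.

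Mouse oocytes rely on granulosa cells for much of their cholesterol. Over cholesterol synthesis and uptake 6 of 26 tested members had positive and 20 negative log2 changes, with a median of −0.17 (−0.091 without control libraries 1 and 2), and an unadjusted p below 0.05 was found for 7 lower and 0 higher (background 3.52% lower and 1.8% higher). Fdps, of the mevalonate pathway, was at 117, 251, 115 and 95.9 CPM in control libraries 1 to 4 and 79.9, 78.4, 83.4 and 78.2 CPM in dextran libraries 1 to 4. Its groups did not overlap, control library 2 was far above the rest, and its log2 change of −0.86 ± 0.24 was −0.41 without control libraries 1 and 2. Cyp51, lanosterol demethylase, had −1.60 ± 0.49 with all controls and −0.95 without them. For fatty acid and lipid droplet genes 7 of 18 tested members had positive and 11 negative log2 changes, with a median of −0.29 (0.019 without control libraries 1 and 2). Scd2, a desaturase at 1278 ± 227 CPM in control granulosa cells, was at 38.7, 179.8, 4.25 and 0 CPM in controls and 1.65, 0.131, 0.364 and 2.37 CPM with dextran.

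Oxidant defence genes were also mostly negative with all controls. There 5 of 29 tested members had positive and 24 negative log2 changes, with a median of −0.25 (−0.11 without control libraries 1 and 2). Fth1, the ferritin heavy chain, was at 125, 273, 148 and 154 CPM in controls and 107, 121, 92.6 and 127 CPM with dextran (−0.65 ± 0.19; −0.44 without control libraries 1 and 2). Prdx6 and Prdx3, peroxiredoxins that reduce peroxides, had −1.09 ± 0.34 and −0.51 ± 0.17 (−0.89 and −0.36 without those libraries), both with groups that did not overlap. Gstm5, a glutathione transferase, was at 9.64, 14.3, 12.1 and 9.77 CPM in controls and 6.40, 10.4, 103 and 6.24 CPM with dextran. The log2 change of Gstm5, 1.46 ± 0.81, turned to −0.57 without dextran library 3. Proteasome genes had a median of −0.02 (−0.09 without control libraries 1 and 2). Psmb5, a catalytic subunit, was at 124, 96.2, 132 and 103 CPM in controls and 102, 96.0, 77.7 and 82.3 CPM with dextran (−0.35 ± 0.14) and Psma7 had 0.13 ± 0.15.

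The cytoskeleton is the system through which cells bear load, and myosin II is the motor of the actin cortex. In the actomyosin and cortex list 17 of 43 tested members had positive and 26 negative log2 changes, with a median of −0.068 (0.081 without control libraries 1 and 2). Myh9, a heavy chain of non-muscle myosin II, was at 4.01, 5.25, 2.47 and 5.31 CPM in controls and 4.22, 3.59, 3.52 and 3.37 CPM with dextran (−0.21 ± 0.32) and Myh10, another, at 4.75, 15.0, 6.29 and 4.10 CPM in controls and 5.41, 6.86, 6.19 and 7.67 CPM with dextran (−0.21 ± 0.40). Fmn2, the formin that builds the actin mesh moving the oocyte spindle, was at 91.7, 94.1, 78.3 and 106 CPM in controls and 88.6, 77.5, 129 and 94.8 CPM with dextran (0.077 ± 0.19; 95% interval −0.32 to 0.48). Groups overlapped for all 3. Rhoa, which activates myosin II, was at 131, 166, 152 and 175 CPM in controls and 163, 185, 195 and 187 CPM with dextran (0.23 ± 0.11, unadjusted p = 0.0523). Actb, beta-actin, was at 107, 202, 83.8 and 97.1 CPM in controls and 77.5, 95.7, 61.5 and 71.7 CPM with dextran (−0.68 ± 0.23; −0.24 without control libraries 1 and 2).

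Flna, filamin A, which cross-links actin, had the smallest p of the actin genes named. It was at 5.75, 6.62, 3.64 and 2.17 CPM in control libraries 1 to 4 and 2.05, 0.719, 0.971 and 0.430 CPM in dextran libraries 1 to 4. All 4 dextran libraries were below all 4 controls, at a log2 change of −2.12 ± 0.48 (edgeR adjusted p = 0.857) and −1.47 without control libraries 1 and 2. Flna was at 91.6 ± 26.3 CPM in control granulosa cells. Ezr, which links actin to the membrane, had −0.79 ± 0.35 (−0.87 without those libraries). Fscn1, fascin, an actin bundler of thin projections, was at 25.6, 88.6, 4.50 and 5.55 CPM in controls and 6.86, 4.25, 2.37 and 5.30 CPM with dextran, and its log2 change of −2.73 ± 0.92 was −0.10 without them. Cdh1, E-cadherin, which joins the oocyte to granulosa cells, was at 112, 151, 114 and 108 CPM in controls and 155, 129, 165 and 166 CPM with dextran (0.34 ± 0.14, unadjusted p = 0.0247, edgeR adjusted p = 0.881). Cdh2, N-cadherin, had 0.25 ± 0.28 and −0.25 without dextran library 3. Tubb5, a tubulin, was at 249.8, 376, 247 and 227 CPM in controls and 192, 217, 179 and 227 CPM with dextran (−0.43 ± 0.15) and Stmn1, which destabilises microtubules, at 78.1, 186, 75.2 and 78.6 CPM in controls and 71.7, 68.9, 65.4 and 69.9 CPM with dextran (−0.60 ± 0.24). Neither overlapped between groups, although for Tubb5 the lowest control and the highest dextran library were the same to 3 digits, and control library 2 was the highest for both.

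YAP is a transcriptional coactivator that responds to mechanical load and is held back by the Hippo kinases. In its list 8 of 15 tested members had positive and 7 negative log2 changes, with a median of 0.027 (0.021 without control libraries 1 and 2). Yap1 was at 118, 129.7, 110.2 and 131 CPM in control libraries 1 to 4 and 127, 132, 169.9 and 151 CPM in dextran libraries 1 to 4. Its log2 change was 0.24 ± 0.11 (unadjusted p = 0.0494, edgeR adjusted p = 0.935), and the groups overlapped. Stk3, the Hippo kinase MST2, was at 79.0, 110.1, 79.3 and 88.2 CPM in controls and 109, 97.4, 128 and 108 CPM with dextran (0.31 ± 0.14), and Lats1, the kinase that phosphorylates YAP, at 2.81, 5.93, 2.65 and 1.27 CPM in controls and 1.85, 0, 0.0607 and 1.86 CPM with dextran (−1.75 ± 0.92).

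Osmotic response genes were of interest because dextran acts through osmotic pressure. Of 26 listed genes 24 were tested, and 13 of 24 tested members had positive and 11 negative log2 changes, with a median of 0.024 (0.074 without control libraries 1 and 2). Slc6a9, the glycine transporter GLYT1 that sets the volume of oocytes, was at 322, 283, 343 and 349.5 CPM in controls and 318, 337, 243 and 275 CPM with dextran (−0.15 ± 0.12). Slc6a6, the taurine transporter, was at 128, 179, 143 and 102 CPM in controls and 124, 174, 151 and 118 CPM with dextran (0.041 ± 0.18; −0.34 to 0.42). Slc5a3, the myo-inositol transporter, was at 7.63, 12.2, 3.21 and 3.80 CPM in controls and 6.40, 4.44, 2.12 and 8.82 CPM with dextran (−0.31 ± 0.57). Groups overlapped for all 3 transporters. Nfat5, the transcription factor of hypertonic stress, was at 1.14, 1.80, 1.60 and 0 CPM in controls and 0.726, 1.31, 0 and 0.287 CPM with dextran, too low for a narrow interval (log2 change −0.96 ± 1.17). Slc4a2, an anion exchanger, was at 10.7, 14.3, 16.2 and 18.6 CPM in controls and 7.19, 12.2, 10.3 and 8.10 CPM with dextran (−0.66 ± 0.23, unadjusted p = 0.0110; −0.88 without control libraries 1 and 2). Aqp11, an aquaporin, was at 0.468, 1.96, 0.431 and 1.63 CPM in controls and 2.51, 3.33, 2.06 and 1.79 CPM with dextran (1.10 ± 0.51, unadjusted p = 0.0475). Slc38a2, an amino acid transporter of osmotic and nutrient stress at 378 ± 87.2 CPM in control granulosa cells, had −3.85 ± 1.59 in full and −0.31 without those libraries.

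Of 15 mechanosensitive channels listed 8 were tested, and 1 of the 8 had a 95% interval within a 2-fold change. Piezo1, a channel opened by membrane stretch, was at 0.669, 1.96, 0.863 and 0.663 CPM in controls and 0.198, 2.61, 2.79 and 1.43 CPM with dextran (0.75 ± 0.89). Tmem63b, an osmosensitive channel, was at 17.4, 16.2, 16.5 and 33.9 CPM in controls and 17.6, 27.1, 52.3 and 24.1 CPM with dextran (0.53 ± 0.31; 0.13 without dextran library 3). Among calcium genes, Cacna1h, the T-type channel through which mouse oocytes take up calcium, was at 16.3, 11.8, 14.4 and 20.1 CPM in control libraries 1 to 4 and 10.2, 11.0, 7.70 and 9.53 CPM in dextran libraries 1 to 4. All 4 dextran libraries were below all 4 controls (log2 change −0.70 ± 0.22, unadjusted p = 0.00577, edgeR adjusted p = 0.857). Its level in control granulosa cells was 1.07 ± 0.720 CPM, and the log2 change was −0.84 without control libraries 1 and 2. Itpr2, a calcium release channel, had 0.40 ± 0.19 and 0.088 without dextran library 3, and Camk2g, the kinase of egg activation, 0.29 ± 0.13 and 0.12.

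Signalling and stress genes gave no call. Smad3, which relays activin and TGF-beta signals, was at 168, 184, 149 and 143 CPM in controls and 181, 203, 232 and 175 CPM with dextran (0.30 ± 0.12, unadjusted p = 0.0237). Skil, a repressor of SMADs, was at 1.67, 7.36, 0.0616 and 0.904 CPM in controls and 0.132, 0, 0.0607 and 0.143 CPM with dextran, and Id3, a BMP target, at 32.9, 121, 13.7 and 9.35 CPM in controls and 17.1, 7.12, 8.13 and 19.9 CPM with dextran. The log2 change of Id3 was −1.77 ± 0.77 with all controls and 0.17 without control libraries 1 and 2. Of immediate early genes, Ier2 was at 8.03, 9.48, 12 and 5.06 CPM in controls and 5.08, 4.05, 6.01 and 3.08 CPM with dextran (−0.92 ± 0.35) and Myc at 2.74, 5.62, 0.308 and 0 CPM in controls and 0.198, 0, 0 and 0.430 CPM with dextran, with Myc at 172 ± 131 CPM in control granulosa cells. Herpud1, of the unfolded protein response, was at 5.82, 26.7, 3.21 and 1.39 CPM in controls and 0.462, 0.457, 0.121 and 1.51 CPM with dextran, and Hspb1, a small heat shock protein, at 4.95, 5.14, 5.92 and 4.46 CPM in controls and 7.13, 4.31, 9.46 and 9.17 CPM with dextran (0.55 ± 0.28). Bax, which promotes apoptosis, was at 33.5, 37.1, 35.1 and 32.7 CPM in controls and 32.0, 29.4, 27.8 and 25.9 CPM with dextran (−0.27 ± 0.13), without overlap. Mov10l1, of piRNA production, was at 9.57, 9.33, 6.29 and 10.2 CPM in controls and 6.73, 3.53, 5.82 and 3.87 CPM with dextran (−0.82 ± 0.30, unadjusted p = 0.0139) and had no count in granulosa cells.

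**Figure D5:**
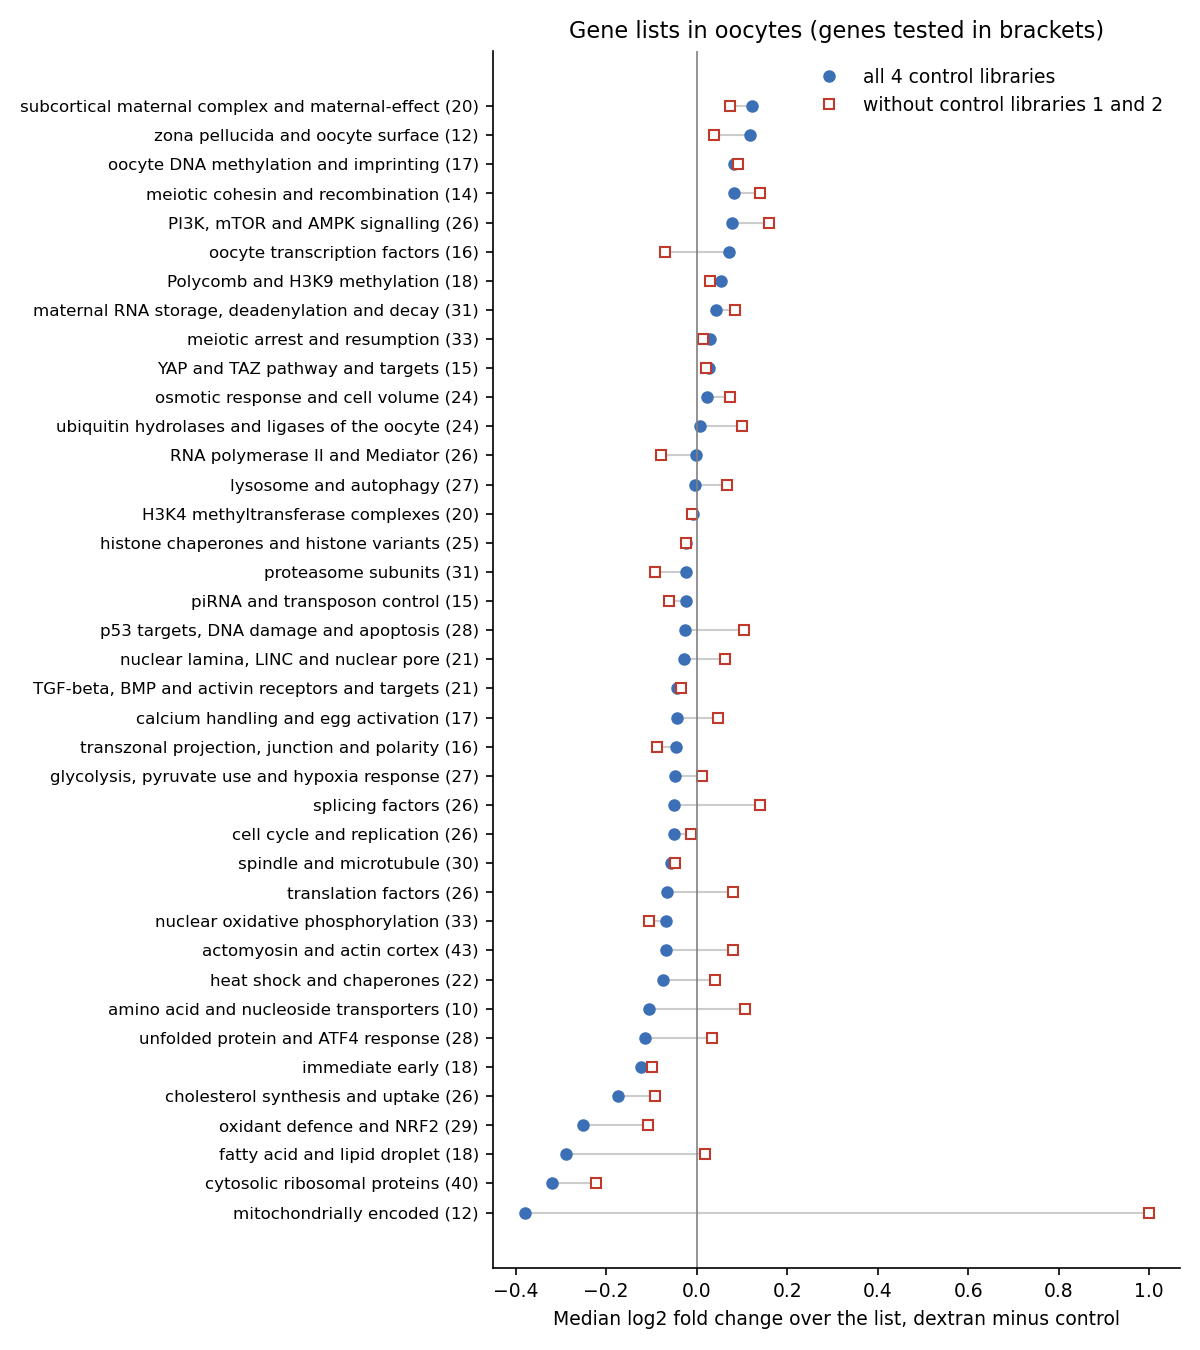
Median log2 fold change (dextran minus control oocytes) over the tested members of each pathway list with at least 10 tested (lists of cell type markers are not drawn), with all 4 controls (filled circles) and without control libraries 1 and 2 (open squares). Medians of the drawn lists with all controls run from −0.38 for mitochondrially encoded genes to 0.12 for the subcortical maternal complex, and the mitochondrially encoded median is 1.00 without those libraries.

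Markers of other cells were checked as well. Kdr, a receptor of endothelial cells, was at 0.134, 0.742, 0 and 0 CPM in controls and 2.31, 0.327, 7.22 and 1.51 CPM with dextran, and Laptm5, of immune cell lysosomes, at 2.01, 3.97, 4.38 and 5.13 CPM in controls and 5.54, 8.30, 11.8 and 4.59 CPM with dextran (0.97 ± 0.40). Endothelial markers summed to 72.7 to 119 CPM in controls and 89.6 to 127 CPM with dextran, with 2 to 4 of 6 at 0. Blebbistatin oocytes had 105 to 136 CPM. The median level of the 3 tested members in control granulosa cells was 0.013 times that in blebbistatin oocytes. The sum alone does not tell which cells held these transcripts. Cyp19a1, aromatase, on the granulosa list, was at 27.7, 27.4, 26.0 and 17.7 CPM in controls and 36.8, 23.1, 31.4 and 33.6 CPM with dextran (0.34 ± 0.19), unlike Inha and Amh, and was at 8.74 ± 9.80 CPM in control granulosa cells. The part of other cells in any result was not tested.

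Granulosa cells of dextran-treated follicles were set beside the oocytes. There, 0 of 15370 genes passed (edgeR, percent called 0%), and 523 had an unadjusted p below 0.05. The oocyte response minus the granulosa response, tested as an interaction over all 24 libraries, gave 0 of 20601 genes (edgeR, percent called 0%, smallest adjusted p 0.246), with 1912 at an unadjusted p below 0.05. Limma voom called 0 and DESeq2 210, and edgeR with the replicate number within each cell type as a block called 34, 27 of them negative. The median interaction over all genes was −0.16, which DESeq2 size factors moved to −0.04. It was 0.04 without control oocyte library 2, 0.10 without control oocyte libraries 1 and 2, and 0.01 without dextran granulosa library 2. It was −0.013 and −0.028 without control granulosa libraries 1 and 3, and −0.0017 and −0.0057 without dextran granulosa libraries 3 and 4. With any other single library left out it was −0.21 to −0.14. With only genes averaging 5 CPM or more it was −0.0025. At an unadjusted p below 0.05 (edgeR), 314 interactions were positive and 1598 negative in full. Without control oocyte libraries 1 and 2 these were 632 and 438. Leaving out control oocyte library 4 gave 91 calls, 90 of them negative, leaving out dextran oocyte library 3 gave 2, and leaving out control granulosa libraries 2 or 4 or dextran granulosa libraries 1 or 4 gave 1, 6, 4 and 1. The other single libraries left out gave 0.

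Fyttd1 had the smallest interaction p, at −1.50 ± 0.30 on the log2 scale (edgeR adjusted p = 0.246), with 155 ± 16.1 CPM in control and 175 ± 13.8 CPM in dextran granulosa cells. Tubb2a, a tubulin, was at 416 ± 35.1 CPM in controls and 410.0 ± 39.3 CPM with dextran in oocytes, a log2 change of −0.020 ± 0.11. In granulosa cells it was at 15.9 ± 5.16 against 41.8 ± 15.4 CPM (interaction −1.51 ± 0.31, edgeR adjusted p = 0.246). Cenpa, the centromere histone, was at 117 ± 12.1 CPM in controls and 103 ± 14 CPM with dextran in oocytes and at 123 ± 9.67 against 176 ± 21.7 CPM in granulosa cells (interaction −0.79 ± 0.16, edgeR adjusted p = 0.246). The positive interactions of smallest p, Mab21l2, Zmat4 and ENSMUSG00000124269, rested on granulosa cell levels below 1 CPM. For Inha the granulosa cell log2 change was −0.16 ± 0.10, for Inhbb −1.54 ± 0.47, for Rhoa 0.40 ± 0.082 and for Hspb1 1.72 ± 0.49. None of these 4 changes passed the test in granulosa cells (edgeR quasi-likelihood test).

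Blebbistatin oocytes were compared with the same control libraries, so their values share those controls with the dextran values and are given side by side only. Hadh was at 4.01 ± 1.34 CPM with blebbistatin, a log2 change of −1.37 ± 0.44 against −2.15 ± 0.46 with dextran. Fyttd1 had −0.60 ± 0.27 against −1.21 ± 0.28, and Inha −2.49 ± 1.49 against −4.72 ± 1.67. Slamf7 had 1.31 ± 0.44 against 1.67 ± 0.44, and Cacna1h −0.038 ± 0.22 against −0.70 ± 0.22. Cdc25b had −0.35 ± 0.19 against −0.43 ± 0.19. Flna had −0.19 ± 0.45 against −2.12 ± 0.48. The difference between the treatments was not tested for these genes.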

How the data were processed

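RNA sequencing of 12 oocyte libraries, 8 of them compared here, and of 12 granulosa cell libraries was used as deposited, in 2 tables of 78298 genes. The authors deposited estimated counts from salmon, per the labels. The submitters' processing notes name the build GRCm39. Strand setting, annotation and aligner are not given in the sources at hand. Counts were rounded. Genes were filtered with filterByExpr, scaled by TMM and tested with edgeR 4.0.16 (quasi-likelihood, robust) over the 3 oocyte groups, with Benjamini-Hochberg adjustment over all genes tested and a threshold of 0.05. The difference between cell types was an interaction over 24 libraries. Library measures were compared by exact permutation tests. Limma 3.58.1 (voom), DESeq2 1.42.0, other scalings and filters, covariates and libraries left out were alternatives. Total counts of 14244057 to 18399462 bound counting error only, because PCR copies were not marked and are not independent.

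The 47 gene lists (1029 symbols, 4 of them older names of listed genes, which the tables hold under their current names) and the rule for named genes were chosen with earlier results of these data known. The rule takes 12 genes per direction of smallest p that have a symbol and average 5 CPM or more, up to 3 members of each list per direction, 20 anchor genes and 3 interaction genes per direction. The named list members are a part of those. No sequence or coordinate is given, since the genome provided was of another build. On simulated data for this comparison (16236 genes tested, 100 genes changed 2-fold and 100 changed 4-fold) edgeR found 56% and 98%, with 6 false calls among 160, and called 0 with no change. DESeq2 made 34 false calls among 208 and called 8 with no change. Changes were planted only in genes averaging 5 CPM or more. The simulated libraries of a group differed only by each gene's random spread, with no granulosa RNA shared by some of them. The shares found may therefore not hold for the real libraries.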

Additional observations from a re-analysis of the deposited data

Results flagged for a closer look

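In each group of 4 libraries, named genes and library measures were searched for 1 library far from the other 3 (Dixon's test at the 95% level). This found 33 cases in 280 groups. Control library 2 held 13 of these cases and dextran library 3 held 11. A chance rate of 1 in 20 holds for independent groups of normally spread values, so it is no reference for this count. The groups came from the same libraries, and part of the genes were named for their small p in this comparison. With dextran, Amh and Fads2 had a count in 1 library only, which passes the test whatever the level.

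Control library 2 was far above the other controls for Hadh (23.3 CPM), Prps1 (28.1 CPM), Anp32b (293 CPM), Fdps (251 CPM), Cyp51 (44.5 CPM), Cdh1 (151 CPM), Tubb5 (376 CPM), Stmn1 (186 CPM), Piezo1 (1.96 CPM), Fads2 (13.7 CPM), Tmed1 (17.6 CPM) and Pck2 (24 CPM), and far below them for Fgf8 (105 CPM). It was also the control library with the most granulosa transcripts, as given above, and their part in these values was not tested. Cdh1 was at 0.0580 ± 0.116 CPM in control granulosa cells.

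Dextran library 3 was far above the other dextran libraries for Ldhb (3357 CPM), Tgfb2 (980.1 CPM), Astl (518 CPM), mt-Cytb (397 CPM), Itpr2 (236 CPM), mt-Co1 (228 CPM), Cdh2 (129.9 CPM), Gstm5 (103 CPM), Cdc42ep3 (72.3 CPM), Hadh (2.43 CPM, in a group of very narrow range) and the share of counts from mitochondrially encoded genes (0.317%). Its mean log2 granulosa marker level (1.92) was the lowest of the 8 libraries, while its summed marker level (852 CPM) was the highest of the dextran libraries.

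The other 6 libraries gave 9 cases. Psmd13 (18.0 CPM), Amh (0.462 CPM) and Fads2 (0.132 CPM) were high in dextran library 1, and Inhbb (1.15 CPM) in dextran library 4, where Plk1 was low (460.0 CPM). Ezr was low in dextran library 2 (2.03 CPM), Zp2 in control library 1 (891 CPM) and Cyp19a1 in control library 4 (17.7 CPM), where Tmem63b was high (33.9 CPM).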

How the results depend on the processing

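Over 22 alternatives, 21 of them planned, edgeR and limma voom called 0 genes between dextran and control oocytes and DESeq2 called 4. The count stayed at 0 with DESeq2 size factors, no filter, a mean of at least 5 CPM, only the 8 libraries, the granulosa marker level as covariate, mitochondrially encoded genes left out, and each library left out in turn. The labels do not say what a replicate number shares, and pairing by it was not tested. Correlations of same-numbered deviations were −0.13 to 0.10 between control and dextran oocytes, where differently numbered pairs gave −0.13 to 0.15. They were −0.026 to 0.033 between oocytes and granulosa cells of one treatment. Between control and dextran granulosa cells they were −0.11 to 0.30, where differently numbered pairs gave −0.30 to 0.16. The fit with the replicate block called 0 genes between dextran and control and 34 for the difference between cell types. For that difference DESeq2 called 210, libraries left out in turn gave 0 to 91, and leaving out control oocyte libraries 1 and 2 gave 1. The cause was not tested. Of 136 named genes, 10 with a log2 change beyond 1 SE had another sign under some alternative. With the granulosa marker level as covariate Oosp3 was at −0.045, H2az1 at 0.088, Set at 0.20, Gja1 at 0.18, mt-Co1 at 0.65, mt-Cytb at 0.81, Slc38a2 at 0.13 and Id3 at 0.29. With 1 library left out in turn Astl ran from −0.0027 (without dextran library 3) to 0.74 and Gstm5 from −0.57 (without the same library) to 1.82. Without control libraries 1 and 2 Set was at 0.07, Gja1 at 0.36, mt-Co1 at 0.82, mt-Cytb at 0.98 and Id3 at 0.17. Hadh, Fads2, Tmed1 and Pck2 passed with DESeq2 alone (log2 changes −2.15, −7.04, −4.61 and −7.67). With 1 library left out, dextran minus control was −0.148 to 0.00026 percentage points for the mitochondrially encoded share of counts in oocyte libraries, −1538 to −44 for genes detected in oocyte libraries, and 0.045 to 0.12 for the oocyte marker level in oocyte libraries. Without control libraries 1 and 2 the first was 0.065 and the second 484.5. The median log2 change of genes at least 8-fold higher in granulosa cells was −0.51 with 5 CPM required in the blebbistatin libraries and 0.024 without control libraries 1 and 2. The number of libraries and the counts of genes below 5 CPM limit precision.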
